A study of Homo sapiens with 8 samples.

Results

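The cytosolic and mitochondrial heat shock chaperones and their partner proteins were examined as a set of 48 genes, chosen by name and function with earlier results of these data known, among the 20263 genes of the deposited expression table. They were divided into 2 heat shock transcription factors, 8 HSP70 family genes, 2 cytosolic HSP90 genes, 3 small heat shock proteins, 7 J-proteins, 13 cochaperones, 8 subunits of the CCT chaperonin and 5 mitochondrial chaperones. PANC-1, an established cell line from a human pancreatic duct carcinoma, was treated for 24 h with the solvent DMSO or with 10 µM Eupalinolide B (EB), a plant compound from Eupatorium lindleyanum, and mRNA was sequenced from 4 libraries per group. The methods describe 4 biological replicates per group but also mention triplicates sent for sequencing, which was not resolved here. No genotype or second treatment separated the groups. The same work reported more HSP70 protein with EB, in western blots of PANC-1 and MiaPaCa-2 cells and in stained xenograft tumors. Protein and transcript levels are different measures, and the question addressed here was which chaperone transcripts differed between EB-treated and DMSO-treated cells.

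HSP70 proteins bind exposed hydrophobic stretches of unfolded proteins in cycles of ATP hydrolysis, which J-proteins stimulate and nucleotide exchange factors such as the BAG proteins reset. HSP90 acts later on partly folded clients such as kinases and steroid receptors, with cochaperones that deliver the client or set the speed of its ATPase, while the ring-shaped CCT chaperonin encloses actin and tubulin, and HSPD1 with its lid HSPE1 encloses proteins inside mitochondria. When unfolded proteins accumulate, the transcription factor HSF1 binds repeated GAA units, called heat shock elements, in the promoters of many of these genes. The proteins of this set are abundant in most cultured cancer cells without any stress.

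The bases before the transcription start are shown for 6 members, because the heat shock element is the sequence through which HSF1 acts and these members include genes that rose, fell and did not pass the test. CACYBP and HSPB1 were taken as members with the largest rises whose window could be printed, and HSP90AA1, HSPA1A, DNAJB1 and HSPA8 were added after their values were seen. BAG1 and AHSA1 rose more than HSP90AA1 and had printable windows of 158 and 49 bases, but they are not shown. Neither had a heat shock element in the 250 bases before its start, so the 6 windows shown do not represent the members. Sequences come from RefSeq on GRCh38.p14, run 5′ to 3′ on the strand of the gene and omit bases annotated as UTR of any transcript. Capitals mark matches to the heat shock motifs, which are GAANNTTC, TTCNNGAA and the element of 3 alternating units GAA, TTC and GAA with any 2 bases between units, or in CACYBP to the antioxidant response element core TGACNNNGC read on the opposite strand. The windows of HSPB1 and HSPA1A lie outside the annotated gene, and the other 4 lie inside the span of their own gene, before the canonical start and after the start of a longer transcript. They are located at chr1:174999697-174999946 on the plus strand for CACYBP, chr7:76302423-76302672 on the plus strand for HSPB1, chr14:102087045-102087294 on the minus strand for HSP90AA1, chr6:31815293-31815542 on the plus strand for HSPA1A, chr19:14518408-14518647 on the minus strand for DNAJB1 and chr11:123062353-123062386 on the minus strand for HSPA8.
CACYBP: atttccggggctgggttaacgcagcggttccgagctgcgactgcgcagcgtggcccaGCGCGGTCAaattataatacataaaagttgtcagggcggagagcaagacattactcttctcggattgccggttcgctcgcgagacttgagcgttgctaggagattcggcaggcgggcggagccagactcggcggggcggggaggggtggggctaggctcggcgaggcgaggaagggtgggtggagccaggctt
HSPB1: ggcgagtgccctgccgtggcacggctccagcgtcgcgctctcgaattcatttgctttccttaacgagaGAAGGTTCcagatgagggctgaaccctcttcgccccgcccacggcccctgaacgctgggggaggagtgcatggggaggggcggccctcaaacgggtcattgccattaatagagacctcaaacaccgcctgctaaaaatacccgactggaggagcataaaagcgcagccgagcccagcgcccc
HSP90AA1: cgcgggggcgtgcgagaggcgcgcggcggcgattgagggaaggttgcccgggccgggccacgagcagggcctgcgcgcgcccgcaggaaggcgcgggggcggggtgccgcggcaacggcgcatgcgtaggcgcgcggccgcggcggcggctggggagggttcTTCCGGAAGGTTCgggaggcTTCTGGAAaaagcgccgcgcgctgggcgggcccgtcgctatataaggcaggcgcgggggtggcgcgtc
HSPA1A: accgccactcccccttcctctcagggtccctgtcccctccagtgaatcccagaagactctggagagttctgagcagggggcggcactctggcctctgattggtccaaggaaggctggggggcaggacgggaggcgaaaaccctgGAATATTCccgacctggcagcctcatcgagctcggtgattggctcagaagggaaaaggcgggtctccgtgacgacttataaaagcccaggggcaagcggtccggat
DNAJB1: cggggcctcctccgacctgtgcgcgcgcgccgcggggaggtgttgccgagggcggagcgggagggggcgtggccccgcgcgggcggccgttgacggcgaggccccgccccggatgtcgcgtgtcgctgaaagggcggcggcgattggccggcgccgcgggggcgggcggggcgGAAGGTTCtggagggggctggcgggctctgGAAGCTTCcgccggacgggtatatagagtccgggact
HSPA8: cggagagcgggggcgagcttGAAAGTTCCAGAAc

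Of the 48 members, 42 matched an entry of the RefSeq promoter table, which held 35116 promoters, and HSF1, HSPA14, CRYAB, FKBP4, STUB1 and CCT6A were not matched. Searched on both strands of the 250 bases before the start, the 3-unit heat shock element was present in 5 of the 42 members, namely HSPA8, HSP90AA1, DNAJB6, CHORDC1 and HSPD1, and in 0.441% of all promoters. These 5 included HSP90AA1 and HSPD1, which rose with EB, HSPA8, which fell, and DNAJB6 and CHORDC1, which did not pass the test. The shorter form GAANNTTC, which is contained in the 3-unit element, was present in 13 of 42 members and in 5.78% of all promoters. It was found in 5 of the 15 matched members that rose, in 1 of the 2 that fell and in 6 of the 24 that were tested and not called, and also in HSPB8, which was not tested. The form TTCNNGAA, also part of the 3-unit element, was present in 7 members and in 6.62% of all promoters. The antioxidant response element core TGACNNNGC was present in 6 members and 10.9% of all promoters, the amino acid response element core TGATGNAA in 0 members and 3.14%, and the CCAAT box in 13 members and 32.0%. A match describes letters in the window and is not a measured binding site.

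Values are TPM, a transcript level scaled for transcript length and to a fixed total per library, and read depth is not known from them. Mitochondrially encoded genes took 39.0% of the TPM of DMSO 4, 17.0% to 21.1% in the other DMSO libraries and 11.6% to 20.3% in the EB libraries. DMSO 4 was the lowest DMSO library for 38 of 46 members (82.6%) and for 77.0% of all 11725 genes tested, and values without mitochondrially encoded genes are given beside the calls they change. The fold change of all genes also followed transcript length, with a median log2 fold change of 0.42 for the shortest transcripts (276 to 1219 nt, the lowest of 10 bins) and -0.54 for the longest (7315 to 34626 nt), and the members had a median length of 2493 nt against 3216.5 nt for all genes tested. Among markers of duct carcinoma epithelium, KRT8, KRT18 and KRT19 were abundant and KRT7, EPCAM and CDH1 were under 1 TPM in all 8 libraries, and the summed level of the 6 markers was 992 to 1454 TPM with DMSO and 3209 to 3593 TPM with EB. Whether these shifts bear on the chaperone values was not tested beyond the alternatives given. Marker lists of acinar, endocrine, leukocyte and endothelial cells summed to at most 0.305 TPM in any library, and the fibroblast list to at most 2.21 TPM. In these bulk samples, less RNA per cell and fewer cells of a kind cannot be told apart.

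With EB, 18 of the 46 tested members rose (39.1%), 2 fell and 26 did not pass the test (limma on log2(TPM + 1), adjusted p under 0.05 over all genes tested). Of all 11725 genes tested, 15.2% rose and 25.1% fell, and 40.3% were called in either direction. The counts by class below stand beside these same shares. The members that rose were HSF1, HSPA4, HSPA14, HSP90AA1, HSPB1, DNAJC7, BAG1, BAG2, AHSA1, FKBP4, FKBP5, CDC37, CACYBP, TCP1, CCT2, CCT8, HSPD1 and HSPE1, and those that fell were HSPA4L and HSPA8. The median log2 fold change of the tested members was 0.33, against -0.11 for all genes tested, and 37 of the 46 had a positive value. All EB libraries were above all DMSO libraries for 20 members and below them for 2, where 16.6% and 20.3% of all genes tested were so placed. Changes were small, since 0 members passed p under 0.05 with an absolute log2 fold change above 1.5, a criterion met by 2.08% of all genes tested, and CACYBP was the 1 member above 1. With median-ratio scaling 30 members rose and 2 fell, where 25.9% and 26.3% of all genes did, and without mitochondrially encoded genes 12 rose and 4 fell, where 12.1% and 41.4% did. Leaving out DMSO 3 left 11 that rose and 0 that fell, where 12.1% and 16.9% of all genes did. The two-sided exact permutation test of a single gene has 70 assignments and cannot go below p = 0.0286, which 22 members reached. It gives that value only where the groups are fully separate, so these are the 20 and 2 members counted above. The test adds nothing to that count.

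**Figure D1:**
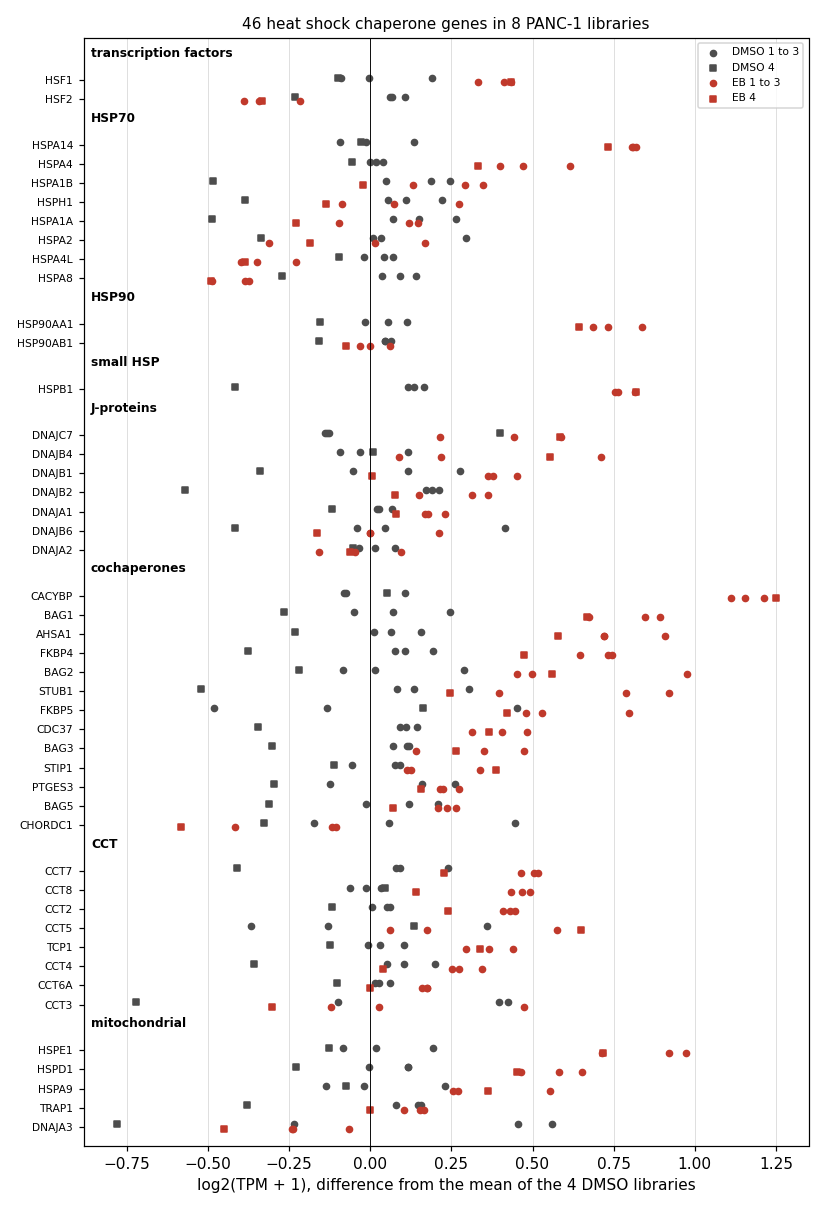
Level of each of the 46 tested members in each library, as log2(TPM + 1) minus the mean of the 4 DMSO libraries, with DMSO in grey, EB in red and library 4 of each group as a square. The red points of CACYBP, HSPA14, HSP90AA1, HSPB1, BAG1, AHSA1 and HSPE1 lie to the right of all grey points, those of HSPA8 and HSPA4L to the left, and the grey square is often the lowest DMSO point.

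**Figure D2:**
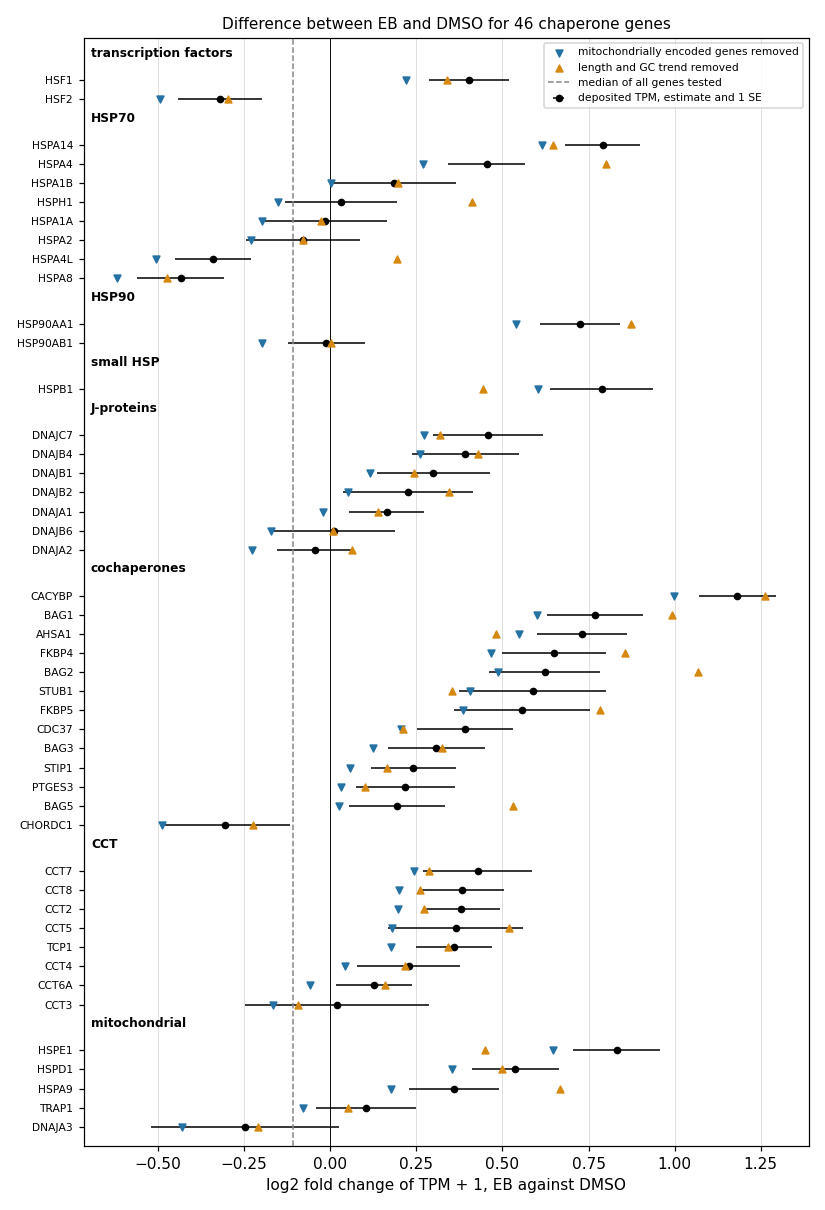
Log2 fold change of TPM + 1 (EB against DMSO) for the same 46 members with 1 SE in black, after removal of mitochondrially encoded genes in blue and after the trend on length and GC content was taken out in orange. CACYBP has the highest black point at 1.18, HSPA8 the lowest at -0.43, and the dashed line is the median of all genes tested at -0.11.

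Among the transcription factors, HSF1, the main activator of heat shock genes, was measured at 102, 124, 109 and 101 TPM with DMSO and at 137, 145, 147 and 147 TPM with EB. All EB libraries were above all DMSO libraries. Its log2 fold change was 0.40 (SE 0.12, n = 4 per group, limma adjusted p = 0.0208). The call was lost without DMSO 1, DMSO 3, EB 3 or EB 4 (limma adjusted p = 0.0573, 0.0546, 0.0582 and 0.0506), with quantile normalization (0.25, limma adjusted p = 0.109), with the length and GC trend removed (0.34, limma adjusted p = 0.0771) and without mitochondrially encoded genes (0.22, limma adjusted p = 0.147). HSF2, a related factor that can pair with HSF1, stood between 6.57 and 8.58 TPM with DMSO and between 5.79 and 6.65 TPM with EB, with a log2 fold change of -0.32 (limma adjusted p = 0.0592). Without DMSO 4, its lowest DMSO library, the value was -0.40 (limma adjusted p = 0.00645), without mitochondrially encoded genes -0.50 (limma adjusted p = 0.00153) and with the length and GC trend removed -0.30 (limma adjusted p = 0.0201), and it also passed with no filter (limma adjusted p = 0.0284).

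In the HSP70 family, 2 of 8 genes rose and 2 fell (25.0% each, where 15.2% and 25.1% of all genes tested did), and the median log2 fold change was 0.01. HSPA8, the constitutive HSC70, was the most abundant member of the class, with 3214, 3342, 3457 and 2597 TPM in the DMSO libraries and 2418, 2396, 2236 and 2230 TPM in the EB libraries. All EB libraries were below all DMSO libraries, DMSO 4 being the nearest to them. It fell by 0.43 on the log2 scale (SE 0.13, limma adjusted p = 0.0223), and its rank among all genes of the table went from 28 to 35 with DMSO to 51 to 65 with EB. The call was lost without DMSO 1, DMSO 2, DMSO 3, EB 3 or EB 4, with limma adjusted p between 0.0540 and 0.0701, while the log2 fold change was between -0.39 and -0.42. Quantile normalization gave -0.65 (limma adjusted p = 0.00115). HSPA8 has 17 pseudogenes named after it in the annotation, with which its reads may be shared.

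HSPA1A and HSPA1B encode the stress-inducible HSP70 and lie near each other on chromosome 6. HSPA1A was at 130, 123, 141 and 83.5 TPM with DMSO and at 130, 127, 110 and 100 TPM with EB. The EB libraries lay inside the DMSO range, and the log2 fold change was -0.01 (SE 0.18, limma adjusted p = 0.954), with 0.10 under median-ratio scaling (limma adjusted p = 0.419) and -0.20 without mitochondrially encoded genes (limma adjusted p = 0.174). HSPA1B was at 87.3, 79.2, 90.9 and 54.3 TPM with DMSO and at 97.5, 93.8, 83.8 and 75.2 TPM with EB. Its groups overlapped too, with a log2 fold change of 0.19 (SE 0.18, limma adjusted p = 0.427), and it was 0.30 with median-ratio scaling (limma adjusted p = 0.0273) and 0.0029 without mitochondrially encoded genes (limma adjusted p = 0.984). The coding sequences of these genes differ at 4 of 1923 positions (99.8% identical), so reads cannot be assigned to either with certainty. Their summed level was 198 ± 41.6 TPM with DMSO and 204 ± 24.4 TPM with EB (SD, n = 4). Relative to HSPA8 in the same library, the sum was 6.21% ± 0.686 with DMSO, with a range of 5.31% to 6.77%, and 8.79% ± 0.698 with EB, with a range of 7.86% to 9.41%. The sum itself overlapped between groups, while HSPA8 was lower in every EB library than in any DMSO library.

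HSPA14, a ribosome-associated HSP70 relative, was at 29.2, 24.7, 26.2 and 25.9 TPM with DMSO and at 47.0, 47.4, 47.1 and 44.6 TPM with EB. The groups did not overlap, and the spread within each was small against the gap. The log2 fold change was 0.79 (SE 0.11, limma adjusted p = 0.000755). Exons of HSPA14 are shared with MSANTD7 on the same strand and with CDNF on the opposite strand, and reads in the shared bases cannot be told apart with certainty. HSPA4, an HSP110-type nucleotide exchange factor for HSP70, rose from 140, 138, 142 and 133 TPM to 182, 192, 212 and 174 TPM. Every EB value exceeded every DMSO value, with a log2 fold change of 0.45 (SE 0.11, limma adjusted p = 0.0114). It was 0.27 without mitochondrially encoded genes (limma adjusted p = 0.0642), 0.29 with quantile normalization (limma adjusted p = 0.0476) and 0.80 with the length and GC trend removed (limma adjusted p = 0.000564).

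HSPA4L, the close relative of HSPA4, was scarce, at 3.51, 3.71, 3.80 and 3.27 TPM with DMSO and at 2.46, 2.90, 2.58 and 2.49 TPM with EB. The EB libraries lay below all DMSO libraries. It fell by 0.34 on the log2 scale (SE 0.11, limma adjusted p = 0.0327), but its canonical transcript of 10608 nt is the longest of the set, and with the length and GC trend removed the value changed sign to 0.19 (limma adjusted p = 0.0816). Quantile normalization gave -0.02 (limma adjusted p = 0.886), and the call was lost without DMSO 1, DMSO 2, DMSO 3, EB 1, EB 3 or EB 4 (limma adjusted p between 0.0650 and 0.0918). HSPH1, the inducible HSP110, and HSPA2, an HSP70 known from testis, had log2 fold changes of 0.03 and -0.08 (limma adjusted p = 0.892 and 0.727). Both changed sign under another scaling, HSPH1 to -0.07 and HSPA2 to 0.24 with quantile normalization, and HSPH1 reached 0.41 with the length and GC trend removed (limma adjusted p = 0.00407).

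Of the cytosolic HSP90 genes, 1 of 2 rose. HSP90AA1, the inducible isoform HSP90 alpha, was at 1097, 1151, 1199 and 996 TPM with DMSO and at 1782, 1980, 1843 and 1730 TPM with EB. All EB libraries were far above the DMSO libraries. The log2 fold change was 0.72 (SE 0.12, limma adjusted p = 0.0015), and with quantile normalization it was 0.36 (limma adjusted p = 0.0207). HSP90AB1, the constitutive isoform HSP90 beta, was at 1191, 1191, 1206 and 1034 TPM with DMSO and at 1128, 1203, 1152 and 1094 TPM with EB. Its groups overlapped, and the log2 fold change was -0.01 (SE 0.11, limma adjusted p = 0.941), with a sign that depended on the scaling (0.10 with median-ratio scaling, -0.35 with quantile normalization, limma adjusted p = 0.369 and 0.0151).

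The ratio of HSP90AA1 to HSP90AB1 within a library, chosen for display after the values were seen, ran from 0.921 to 0.994 with DMSO and from 1.58 to 1.65 with EB. This ratio does not depend on the scaling of the library, DMSO 4 was within the range of the other DMSO libraries at 0.963, and no test was made on it. The ratio of HSP90AA1 to HSPA8 ran from 0.341 to 0.383 with DMSO and from 0.737 to 0.826 with EB. The ratio of HSPB1 to HSPA8, with transcripts of 777 and 2264 nt, ran from 0.642 to 0.759 with DMSO and from 1.56 to 1.76 with EB. The part of the length trend in it was not tested. For each of these ratios the DMSO and EB ranges did not overlap. For the ratios to HSPA8 it could not be otherwise. In these same libraries HSP90AA1 and HSPB1 were higher in all EB libraries and HSPA8 was lower in all of them. HSPA8 was the more abundant of the HSPB1 and HSPA8 transcripts in every DMSO library and the less abundant in every EB library. The ratio of HSPD1 to HSPA9 ran from 0.854 to 1.20 with DMSO and from 1.02 to 1.33 with EB, with overlapping ranges.

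**Figure D3:**
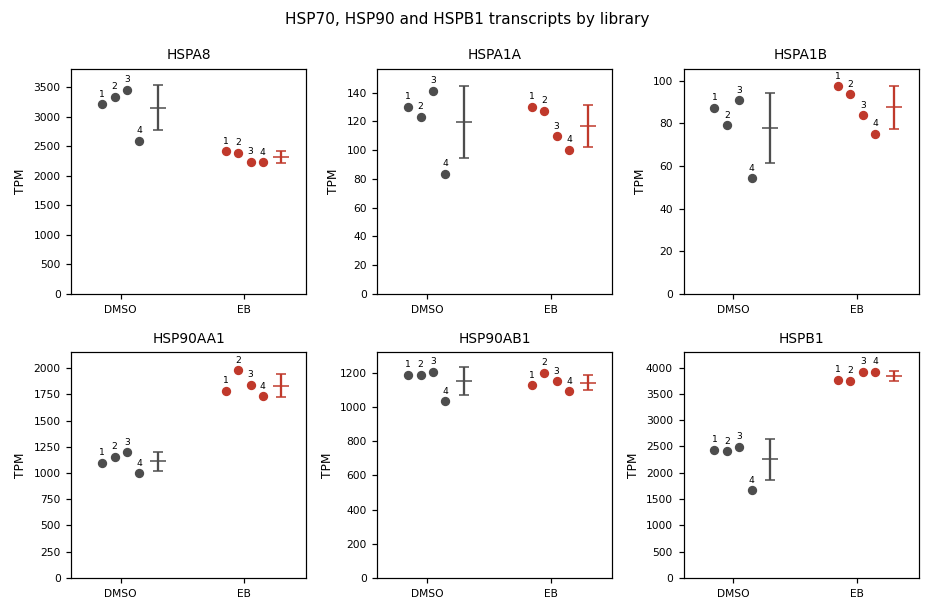
TPM of 6 abundant or inducible chaperone genes in each library, with library numbers beside the points and the mean and SD (n = 4) to the right of each group, on axes that start at 0. HSP90AA1 and HSPB1 were above all DMSO libraries in the 4 EB libraries, HSPA8 was below them, and HSPA1A, HSPA1B and HSP90AB1 overlapped.

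Of the small heat shock proteins, which hold unfolded proteins without using ATP, only HSPB1 was expressed above 1 TPM in the libraries. HSPB1, also called HSP27, was at 2440, 2409, 2497 and 1668 TPM with DMSO and at 3773, 3750, 3917 and 3925 TPM with EB. All EB libraries were above all DMSO libraries, and DMSO 4 stood apart at the low end. The log2 fold change was 0.79 (SE 0.15, limma adjusted p = 0.00324). Its transcript is short at 777 nt, and with the length and GC trend removed the value was 0.44 (limma adjusted p = 0.00426). HSPB1 supplied 15.2% ± 1.09 (SD, n = 4) of the summed TPM of all members with DMSO and 21.2% ± 1.02 with EB. HSPB8, a partner of BAG3, was listed at 0 in every library but EB 4, where it was at 0.0652 TPM. CRYAB, the alpha-B crystallin chain, was at 0.286, 0.0884, 0.512 and 0.380 TPM with DMSO and at 0.328, 0.576, 0.576 and 0 TPM with EB, and neither gene reached the level at which genes were tested.

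Among the 7 J-proteins, which deliver clients to HSP70 and start its ATPase, 1 gene rose and 0 fell, with a median log2 fold change of 0.23. DNAJC7, a J-protein that also binds HSP90, was at 120, 120, 121 and 175 TPM with DMSO and at 153, 199, 180 and 198 TPM with EB. DMSO 4 stood above EB 1, so the groups overlapped. The log2 fold change was 0.46 (SE 0.16, limma adjusted p = 0.0452), and the call was lost under 12 of the 17 alternatives, among them leaving out DMSO 1, DMSO 2, DMSO 3, EB 2, EB 3 or EB 4 (limma adjusted p between 0.0906 and 0.118) and removing mitochondrially encoded genes (0.27, limma adjusted p = 0.325). DNAJB1, the classical stress-inducible HSP40, ranged from 171 to 263 TPM with DMSO and from 218 to 297 TPM with EB, with a log2 fold change of 0.30 (limma adjusted p = 0.171). DNAJA1 had all EB libraries above all DMSO libraries (160 to 177 against 139 to 159 TPM), with a log2 fold change of 0.16 (limma adjusted p = 0.255) that was -0.02 without mitochondrially encoded genes. The other 4, DNAJA2, DNAJB2, DNAJB4 and DNAJB6, overlapped between groups with log2 fold changes from -0.04 to 0.39. DNAJB4 passed the test without EB 3 (0.49, limma adjusted p = 0.0440), with median-ratio scaling (0.48, limma adjusted p = 0.0299), with quantile normalization (0.71, limma adjusted p = 0.00614) and with the length and GC trend removed (0.43, limma adjusted p = 0.0252). DNAJB2 passed under the same 3 scalings or corrections, at 0.34 to 0.35, DNAJA1 and DNAJB1 passed with median-ratio scaling at 0.28 and 0.41 (limma adjusted p = 0.0348 and 0.0101), and DNAJB6 was at -0.13 without DMSO 4 (limma adjusted p = 0.473).

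The cochaperones were the largest class and had the most calls. Of 13 genes 7 rose (53.8%) and 0 fell, where 15.2% and 25.1% of all genes tested did. The median log2 fold change of the class was 0.56. CACYBP, a protein of ubiquitin ligase complexes with SIAH1 that carries a CS domain like that of several HSP90 cochaperones, was at 120, 105, 105 and 115 TPM with DMSO and at 241, 248, 259 and 265 TPM with EB. The lowest EB library was above the highest DMSO library by more than the range within either group. The log2 fold change was 1.18 (SE 0.11, limma adjusted p = 0.000115), and it was at least 0.99 under all 17 alternatives. Exons of CACYBP overlap MRPS14 and an unnamed gene on the opposite strand, and whether the counting used strand was not stated.

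BAG1, a nucleotide exchange factor that links HSP70 to the proteasome, was at 13.8, 17.1, 15.1 and 11.7 TPM with DMSO and at 23.4, 27.4, 26.5 and 23.3 TPM with EB. The groups did not overlap, and the log2 fold change was 0.77 (SE 0.14, limma adjusted p = 0.00261). AHSA1, the strongest known activator of the HSP90 ATPase, was at 231, 216, 208 and 176 TPM with DMSO and at 341, 341, 388 and 309 TPM with EB. Again no EB library fell into the DMSO range, and the log2 fold change was 0.73 (SE 0.13, limma adjusted p = 0.00253) or 0.48 with the length and GC trend removed (limma adjusted p = 0.00096). FKBP4, an immunophilin of steroid receptor complexes, was at 168, 155, 158 and 113 TPM with DMSO and at 247, 230, 244 and 204 TPM with EB. Its groups were likewise separate, with a log2 fold change of 0.65 (SE 0.15, limma adjusted p = 0.00825).

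BAG2, which inhibits the ubiquitin ligase STUB1, CDC37, which loads kinases onto HSP90, and FKBP5, the immunophilin that opposes FKBP4 on the glucocorticoid receptor, were the other 3 cochaperones that rose, with log2 fold changes of 0.62, 0.39 and 0.56 (limma adjusted p = 0.0137, 0.0463 and 0.0462). BAG2 stayed called under all 17 alternatives and was at 1.07 with the length and GC trend removed. CDC37 was called in the full set of libraries and without DMSO 4, but not without any other single library (limma adjusted p of at least 0.0554), nor without mitochondrially encoded genes (0.21, limma adjusted p = 0.0800), with quantile normalization (0.16, limma adjusted p = 0.130) or with a pseudocount of 0.1 (limma adjusted p = 0.0549). FKBP5 overlapped between groups, since DMSO 1 stood at 19.0 TPM and EB 4 at 18.6 TPM, and it lost its call without DMSO 2, DMSO 3, EB 1, EB 2, EB 3 or EB 4 (limma adjusted p between 0.0637 and 0.120). It also lost it without mitochondrially encoded genes (0.39, limma adjusted p = 0.156), with no filter (limma adjusted p = 0.0714), with a pseudocount of 0.1 (limma adjusted p = 0.0535) and with the libraries blocked by replicate number (limma adjusted p = 0.0592).

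The remaining 6 cochaperones did not pass the test. BAG3, the stress-inducible partner of HSPB8, and STIP1, the adaptor between HSP70 and HSP90, had all EB libraries above all DMSO libraries (95.1 to 120 against 69.6 to 93.7 TPM and 437 to 529 against 373 to 431 TPM), with log2 fold changes of 0.31 and 0.24 (limma adjusted p = 0.105 and 0.141). STUB1, the ubiquitin ligase CHIP, had a log2 fold change of 0.59 with overlapping groups (limma adjusted p = 0.0505) and passed under 8 of the 17 alternatives. Without mitochondrially encoded genes it was 0.40 (limma adjusted p = 0.0426), with median-ratio scaling 0.70 (limma adjusted p = 0.00559), with the length and GC trend removed 0.35 (limma adjusted p = 0.0386), with a replicate block 0.59 (limma adjusted p = 0.0112), without DMSO 1 0.69 (limma adjusted p = 0.0444) and without EB 4 0.70 (limma adjusted p = 0.0388), and quantile normalization and an intensity trend also gave calls. PTGES3, the HSP90 cochaperone p23, and BAG5, another nucleotide exchange factor of HSP70, had values of 0.22 and 0.19 (limma adjusted p = 0.250 and 0.287), and CHORDC1, a zinc-binding HSP90 partner, was the only cochaperone with a negative value, at -0.31 (limma adjusted p = 0.221), and fell without mitochondrially encoded genes (-0.49, limma adjusted p = 0.0240). BAG3, BAG5, STIP1 and PTGES3 passed with median-ratio scaling at 0.42, 0.30, 0.36 and 0.33, and BAG3 and BAG5 also with the length and GC trend removed, at 0.32 and 0.53.

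All 8 subunits of the CCT ring had a positive log2 fold change, with a median of 0.36, and 3 of them passed the test. CCT8 was at 209, 223, 217 and 226 TPM with DMSO and at 296, 308, 303 and 241 TPM with EB. EB 4 was closest to the DMSO libraries, which it still exceeded, and the log2 fold change was 0.38 (SE 0.12, limma adjusted p = 0.0303). CCT2 was at 144, 144, 139 and 127 TPM with DMSO and at 189, 184, 187 and 164 TPM with EB. It showed the same separation, with a log2 fold change of 0.38 (SE 0.11, limma adjusted p = 0.0235). TCP1, the subunit also called CCT1, was at 205, 215, 199 and 184 TPM with DMSO and at 246, 259, 272 and 254 TPM with EB. Its EB libraries were above all DMSO libraries as well, with a log2 fold change of 0.36 (SE 0.11, limma adjusted p = 0.0273).

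These 3 calls depended on the scaling and on single libraries. Without mitochondrially encoded genes the log2 fold changes of CCT8, CCT2 and TCP1 were 0.20, 0.20 and 0.18 (limma adjusted p = 0.227, 0.105 and 0.170), and with quantile normalization they were 0.15, 0.21 and 0.12 (limma adjusted p = 0.324, 0.0723 and 0.279). CCT8 lost its call without DMSO 1, DMSO 2, DMSO 3, EB 1, EB 2 or EB 3 (limma adjusted p between 0.0673 and 0.0857), CCT2 without DMSO 2, DMSO 3, EB 1, EB 2 or EB 3 (between 0.0502 and 0.0679), and TCP1 without DMSO 1, DMSO 3 or any EB library (between 0.0527 and 0.0804). CCT7 missed the threshold at 0.43 (limma adjusted p = 0.0551) and passed under 6 of the 17 alternatives, which were median-ratio scaling (0.54, limma adjusted p = 0.00109), removal of mitochondrially encoded genes (0.24, limma adjusted p = 0.0480), removal of the length and GC trend (0.29, limma adjusted p = 0.0190), an intensity trend, a replicate block (0.43, limma adjusted p = 0.0193) and leaving out DMSO 1 (0.51, limma adjusted p = 0.0462). CCT3, CCT4, CCT5 and CCT6A had log2 fold changes from 0.02 to 0.36 with overlapping groups. CCT4 passed with median-ratio scaling (0.34, limma adjusted p = 0.0101), and CCT3 changed sign without DMSO 1, DMSO 4 or EB 1 and under 3 of the other alternatives.

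The subunits of this ring are present in equal number in the protein complex, but their transcript levels were not equal. CCT2 was the lowest subunit in all 8 libraries, and the highest subunit was CCT3, CCT5 or CCT7 depending on the library, at 3.19 to 4.92 times the level of CCT2. CCT3 varied most between libraries of the same group, from 314 to 697 TPM with DMSO and from 421 to 721 TPM with EB.

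**Figure D4:**
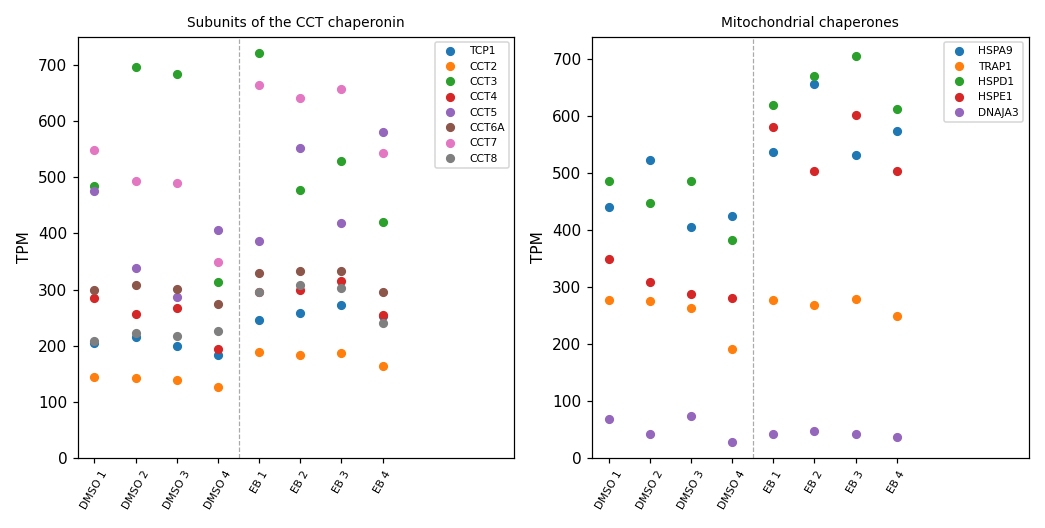
TPM of the 8 CCT subunits (left) and of the 5 mitochondrial chaperones (right) in each of the 8 libraries, with a dashed line between DMSO and EB. CCT2 is the lowest subunit in every library, CCT3 and CCT5 scatter widely within both groups, and HSPD1 and HSPE1 lie higher in all EB libraries than in any DMSO library.

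Of the 5 mitochondrial chaperones, 2 rose and 0 fell, with a median log2 fold change of 0.36. HSPE1, the chaperonin lid HSP10, was at 350, 310, 289 and 280 TPM with DMSO and at 580, 503, 602 and 503 TPM with EB. The groups were well apart, and the log2 fold change was 0.83 (SE 0.13, limma adjusted p = 0.00121). With 557 nt its transcript is the shortest of the set, and with the length and GC trend removed the value was 0.45 (limma adjusted p = 0.000905). HSPD1, the chaperonin HSP60, was at 486, 447, 486 and 382 TPM with DMSO and at 619, 671, 705 and 613 TPM with EB. All EB libraries were again above all DMSO libraries, and the log2 fold change was 0.54 (SE 0.13, limma adjusted p = 0.00855), or 0.35 without mitochondrially encoded genes (limma adjusted p = 0.00945) and 0.30 with quantile normalization (limma adjusted p = 0.0179).

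HSPD1 and HSPE1 lie head to head on chromosome 2 with starts 539 bases apart, their exons overlap on opposite strands, and 18 and 26 pseudogenes are named after them. The ratio of HSPE1 to HSPD1 in a library ran from 0.593 to 0.733 with DMSO and from 0.750 to 0.937 with EB, given here without a test. Their transcripts are 557 and 2245 nt long, and the part of the length trend in this ratio was not tested. HSPA9, the mitochondrial HSP70 that pulls proteins through the inner membrane, had all EB libraries above all DMSO libraries (532 to 656 against 405 to 523 TPM) but missed the threshold at 0.36 (limma adjusted p = 0.0509), and it passed under 7 of the 17 alternatives. These were the absence of a filter, a minimum of 5 TPM, median-ratio scaling (0.48, limma adjusted p = 0.0131), removal of the length and GC trend (0.67, limma adjusted p = 0.0013), an intensity trend, a replicate block (0.36, limma adjusted p = 0.0260) and leaving out DMSO 2 (0.44, limma adjusted p = 0.0435). TRAP1, the mitochondrial HSP90, and DNAJA3, a J-protein of the matrix, had log2 fold changes of 0.10 and -0.25 (limma adjusted p = 0.591 and 0.492). DNAJA3 scattered from 28.9 to 74.6 TPM within the DMSO group alone, and TRAP1 was at -0.02 without DMSO 4.

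Summed over all 48 members, the chaperone transcripts made up 1.47% ± 0.164 (SD, n = 4) of library TPM with DMSO and 1.81% ± 0.0495 with EB. As a share of the TPM of nuclear genes, which leaves out the mitochondrially encoded transcripts, the sums were 1.95% ± 0.0654 and 2.13% ± 0.0671, and on both scales all EB libraries were above all DMSO libraries. The cochaperones (0.225% ± 0.00666 against 0.276% ± 0.0109 of nuclear TPM), the mitochondrial chaperones (0.201% ± 0.00968 against 0.245% ± 0.00816) the small heat shock proteins (0.297% ± 0.0183 against 0.451% ± 0.0285) and the CCT subunits (0.332% ± 0.00998 against 0.350% ± 0.00687) were separate in the same direction on both scales. For the CCT subunits the gap was narrow, with DMSO 4 at 0.340% and EB 3 at 0.343% of nuclear TPM. The HSP90 sum was separate as a share of library TPM but overlapped between groups as a share of nuclear TPM. The HSP70 sum overlapped as a share of library TPM, but as a share of nuclear TPM all EB libraries (0.336% ± 0.0136) were below all DMSO libraries (0.480% ± 0.0237). HSPA8 accounted for 87.2% ± 0.438 of the HSP70 sum with DMSO and for 81.1% ± 0.809 with EB. No test was made on these sums.

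**Figure D5:**
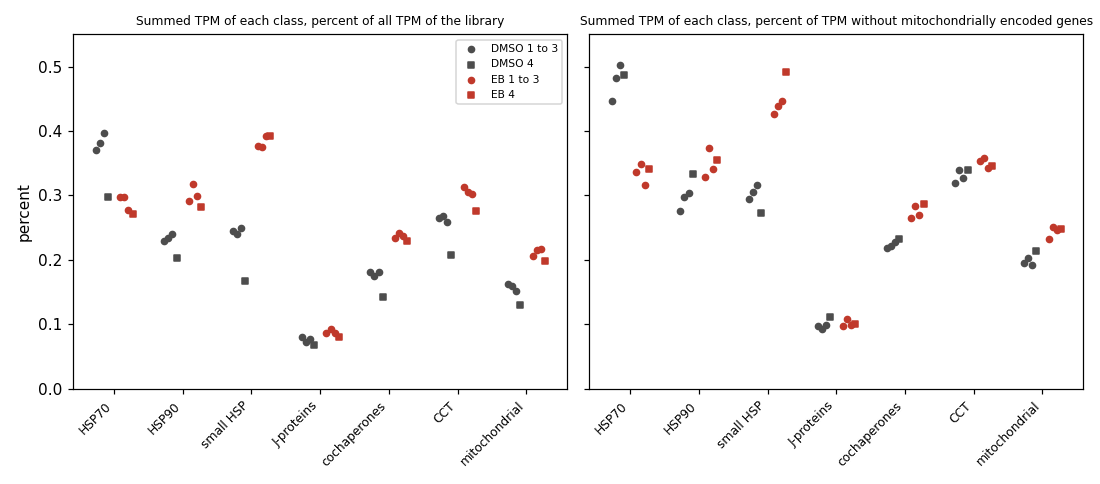
Summed TPM of 7 classes of chaperone genes in each library as a percent of all TPM (left) and of TPM without mitochondrially encoded genes (right), with library 4 of each group as a square. On the right-hand scale DMSO 4 falls in with or above the other DMSO libraries for 6 of the 7 classes, the HSP70 class lies lower in all EB libraries, and the small heat shock proteins, cochaperones, CCT subunits and mitochondrial chaperones lie higher.

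A further 71 genes that act with these chaperones were listed by function, with earlier results of these data known. Of these, 65 were tested. With EB 25 rose (38.5%) and 6 fell (9.23%), and their median log2 fold change was 0.28. For all 11725 genes tested the shares were 15.2% and 25.1% and the median was -0.11. The counts of each list below stand beside these same shares. Of 12 other stress-inducible genes 11 were tested, of which 6 rose and 1 fell. Among those that rose, ZFAND2A, an arsenite-inducible proteasome adaptor, was at 13.7 to 16.7 TPM with DMSO and at 29.2 to 37.1 TPM with EB (log2 fold change 1.18, limma adjusted p = 0.000235). The gene that fell was SLC5A3, the inositol transporter, at 6.05 to 10.5 against 2.45 to 4.22 TPM (-1.11, limma adjusted p = 0.00205), or -0.56 with the length and GC trend removed. HSPA1L, an HSP70 gene of this list, also rose, at low levels of 0.376 to 0.900 against 1.43 to 2.16 TPM (0.74, limma adjusted p = 0.00358). The gene not tested was the HSP70 gene HSPA6, at 0.0340 to 0.353 TPM with DMSO and 0.483 to 0.923 TPM with EB, near the floor.

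In the HSP70 cycle 4 of 16 genes rose and 0 fell, among them HSPBP1, an exchange factor of HSP70, at 41.9 to 76.4 against 100 to 138 TPM (0.97, limma adjusted p = 0.00369), and HSPA12A, a distant HSP70 relative, whose groups overlapped (0.57, limma adjusted p = 0.0215) and whose call was lost without DMSO 1, EB 2 or EB 3 (limma adjusted p = 0.0582, 0.0559 and 0.0591) or without mitochondrially encoded genes (0.42, limma adjusted p = 0.0567). In the HSP90 cycle 6 of 15 rose and 2 fell, with NUDC, a CS-domain cochaperone, at 0.80 (limma adjusted p = 0.00125) and FNIP1, a folliculin partner that slows the HSP90 ATPase, at -0.88 (limma adjusted p = 0.00168) or -0.43 with the length and GC trend removed. Of 10 prefoldin and CCT cofactor genes, 3 rose and 2 fell. PFDN2 and PFDN6, subunits of the prefoldin that hands actin and tubulin to CCT, had values of 0.95 and 0.81 (limma adjusted p = 0.00025 and 0.00366), which were 0.57 and 0.44 with that trend removed. Of 12 mitochondrial genes, 5 rose and 1 fell, including the protease HTRA2 at 1.17 (limma adjusted p = 0.000778) and PAM16 of the import motor at 1.11 (limma adjusted p = 0.00159), the latter 0.72 with that trend removed. Of 6 other small heat shock genes 1 was tested, IFT25, formerly HSPB11, and it rose by 0.65 on the log2 scale (limma adjusted p = 0.00184) or by 0.29 with that trend removed.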

How the data were processed

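PANC-1 mRNA-seq was measured in 8 libraries, and the authors deposited 1 table of TPM per Ensembl gene. The methods assign read counting and normalization to CLC Genomics Workbench and list HISAT2 and StringTie as further tools, not saying which made the table. They and the submitters' processing notes name hg38 beside the mouse builds GRCm38 and mm10, while the gene identifiers are human. Columns headed C1 to C4 and H1 to H4 were read as DMSO 1 to 4 and EB 1 to 4, which the headings do not spell out. Neither read depth nor strand use in counting was given.

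Symbols, positions and lengths came from GENCODE 44 (hg38), matched for 20148 of 20263 genes. Genes that reached 1 TPM in 4 or more libraries were fitted with limma 3.58.1 on log2(TPM + 1), without covariates, and called at a Benjamini-Hochberg adjusted p under 0.05. Fold changes are on this scale, which understates those of low genes. The fit was tested on simulated data. Members and lists were chosen with earlier results of these data known. Values by library are given for HSF1, HSPA1A, HSPA1B, up to 4 called members per class with the largest change, and untested members above 0, HSP90AB1 being added after its value was seen. For other pathway genes, up to 2 called per list are named, HSPA6 and HSPA1L being added after their values were seen. Alternatives were pseudocount, filter, 2 scalings, removal of mitochondrially encoded genes, a length and GC trend, a variance trend, a replicate block and each library left out.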

Additional observations from a re-analysis of the deposited data

Results flagged for a closer look

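Among 92 groups of 4 libraries (DMSO or EB, 46 members), 10 held a library whose gap to the nearest other library was large against the range of the group by Dixon's criterion, which chance alone meets in about 1 of 20 groups. DMSO 4 was the low library in 7 of them, at 6.57 TPM for HSF2, 1034 TPM for HSP90AB1, 1668 TPM for HSPB1, 12.4 TPM for DNAJB2, 69.6 TPM for BAG3, 299.5 TPM for CDC37 and 191 TPM for TRAP1. It was the high library in 1, at 175 TPM for DNAJC7. EB 4 was the low library in 2, at 44.6 TPM for HSPA14 and 295 TPM for CCT6A. DMSO 4 also carried the highest share of mitochondrially encoded TPM, at 39.0%, and the part of that share in these values was not tested.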

How the results depend on the processing

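AHSA1, BAG1, BAG2, CACYBP, FKBP4, HSP90AA1, HSPA14, HSPB1, HSPD1 and HSPE1 kept their call and direction under all 17 alternatives. Median-ratio scaling, which moved the median of all genes from -0.11 to -0.01, gave 30 members that rose, where 25.9% of all genes did. Removing mitochondrially encoded genes, which moved it to -0.28, gave 4 members and 17 other pathway genes that fell, where 41.4% of all genes did. A minimum of 5 TPM gave 1 member that fell, where 23.3% of all genes did. With single libraries left out, 11 to 18 members rose and 0 to 3 fell (10.6% to 15.7% and 16.9% to 36.4% of all genes), and 5 to 11 other pathway genes fell, the 11 without DMSO 4. No member was past the fold threshold of 1.5 under any alternative. With the threshold set at 1 on the values as deposited, 1 member passed, CACYBP, and BAG2 also exceeded 1 with the length and GC trend removed (1.07). Deviations of DMSO and EB libraries of the same replicate number correlated at 0.18, 0.05, -0.09 and 0.28. The highest correlation with an EB library of another number was 0.12, 0.06, 0.13 and -0.02, in the same order. These values do not settle whether the numbers pair the libraries. A block by replicate number gave 20 members that rose and 2 that fell (19.0% and 30.1% of all genes).

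The sign changed for HSPA4L, to 0.19 with the length and GC trend removed (-0.38 to -0.32 with single libraries left out), and for 11 members that had not passed the test. With median-ratio scaling the log2 fold change was 0.10 for HSPA1A, 0.012 for HSPA2, 0.10 for HSP90AB1 and 0.070 for DNAJA2. With quantile normalization it was 0.24 for HSPA2, -0.072 for HSPH1, -0.0012 for DNAJA1, -0.15 for DNAJB6, -0.24 for CCT3, -0.011 for CCT4, -0.094 for CCT6A and -0.14 for TRAP1. Without mitochondrially encoded genes it was -0.15 for HSPH1, -0.021 for DNAJA1, -0.17 for DNAJB6, -0.17 for CCT3, -0.058 for CCT6A and -0.080 for TRAP1. With the length and GC trend removed it was 0.0023 for HSP90AB1, 0.063 for DNAJA2 and -0.095 for CCT3. With single libraries left out, the sign was not constant for HSPA1A (-0.18 to 0.074), HSPA2 (-0.19 to 0.020), HSPH1 (-0.10 to 0.11), HSP90AB1 (-0.065 to 0.0096), DNAJB6 (-0.13 to 0.15), CCT3 (-0.22 to 0.16) and TRAP1 (-0.022 to 0.16). The cause was not tested.

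The table holds no counts, so the counting error of a value is unknown. Reads of 27 members may be shared with overlapping genes, 9 on the same strand and 23 on the opposite, and 22 members have pseudogenes named after them, 112 in all, with 26 for HSPE1, 18 for HSPD1 and 17 for HSPA8.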
